A study of Mus musculus with 6 samples.

Results

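Ribosome biogenesis factors are the proteins that build the ribosome in the nucleolus, and 47 of their mRNAs were examined here by ribosome profiling (Ribo-seq) of mouse tissues. Ribo-seq sequences the RNA pieces that ribosomes protect from nuclease, so that the reads on a coding sequence (CDS) measure its ribosome density. The 47 genes were chosen by symbol, and all 47 were found among the 18437 protein-coding mRNAs listed in at least 1 library. They were placed by role in 4 groups, namely 23 factors of the small subunit (SSU) processome, 14 of large subunit (LSU) assembly, 7 proteins of small nucleolar ribonucleoproteins (snoRNPs) and 3 nucleolar chaperones. The tissues came from WT C57BL/6J mice, 4 weeks old and with no treatment, and the libraries were labelled lung, heart, kidney, brain, colon and small intestine, 1 of each. How many mice gave a library is not given in the sources used here. Without replicates no error between animals could be had and nothing was tested, so that every difference below is one between single libraries.

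The ribosome is made from ribosomal RNA (rRNA) that is transcribed in the nucleolus as a long precursor. The SSU processome assembles on the precursor first, folds and cleaves the part that becomes the small subunit, and holds the U3 snoRNP, a box C/D particle. LSU assembly factors mature the other part, while box C/D snoRNPs methylate rRNA and box H/ACA snoRNPs turn uridine into pseudouridine. Kri1 is an SSU factor first described in yeast through its binding to Krr1, a KH domain protein of the same pathway. Cells that grow and divide make many ribosomes, and Myc is a known activator of the genes of this pathway.

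The labels were checked first, because the libraries labelled by 4 of the tissues did not carry the markers of that tissue. All 3 markers of small intestine were highest in the brain-labelled library, those of kidney in the colon-labelled library, those of colon in the kidney-labelled library, and those of brain in the small intestine-labelled library. In those 4 cases the level under the marker's own label was between 0% and 1.71% of the highest library. The 3 heart and the 3 lung markers were highest under their own labels. Libraries are therefore named by their labels throughout, and no level is assigned to a tissue. The libraries held between 4504853 reads on CDSs (colon-labelled) and 10635031 reads (brain-labelled), and between 11520 (brain-labelled) and 15028 (small intestine-labelled) mRNAs with reads. Markers of dividing cells also differed: the summed density of 16 proliferation mRNAs ran from 36.5 RPKM in the small intestine-labelled library to 436 RPKM in the brain-labelled library.

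RPKM is the number of reads on a CDS scaled to its length and to the reads of the library, so levels can be set side by side between mRNAs of different length. Values over the 6 libraries are given below in alphabetical order of the label: brain, colon, heart, then kidney, lung and last small intestine. The reads behind each RPKM value were recovered from the steps in the values, and intervals are exact 95% Poisson intervals of those reads. They cover counting error only, since the reads carry no molecular identifiers.

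Kri1 stood apart from all its partners in level. Its density was 9521, 32083, 4933, 104584, 1893 and 66762 RPKM, a range of 55.2-fold in RPKM. It was the mRNA with the highest density of all in the colon-, kidney- and small intestine-labelled libraries, and it ranked 9, 22 and 39 in the brain-, heart- and lung-labelled libraries. The read counts behind these values were between 30954 and 1677405, so counting error was far smaller than the differences between libraries.

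Against the median of the other 46 members in the same library, which does not depend on the library's total, Kri1 was 542, 2047, 385, 9139, 99.0 and 8104 times as high. The next member below it was Ncl in 5 libraries and Fbl in the colon-labelled library, and Kri1 exceeded that member by between 4.26-fold (lung-labelled) and 798-fold (kidney-labelled). Kri1 carried between 50.4% (lung-labelled) and 99.2% (kidney-labelled) of all reads on the 47 mRNAs. The order of the libraries by Kri1 was thus kidney-, small intestine-, colon-, brain-, heart- and lung-labelled, with no overlap between the counting intervals of neighbours.

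Krr1, the partner that Kri1 binds, was an mRNA of ordinary level. Its density was 5.28, 10.7, 23.5, 9.02, 24.2 and 14.0 RPKM, from between 55 and 219 reads. It was highest in the lung- and heart-labelled libraries, where Kri1 was lowest, and the counting intervals of those 2 libraries overlapped. The ratio of Kri1 to Krr1 was lowest at 78.3 in the lung-labelled library and highest at 11592 in the kidney-labelled library.

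**Figure D1:**
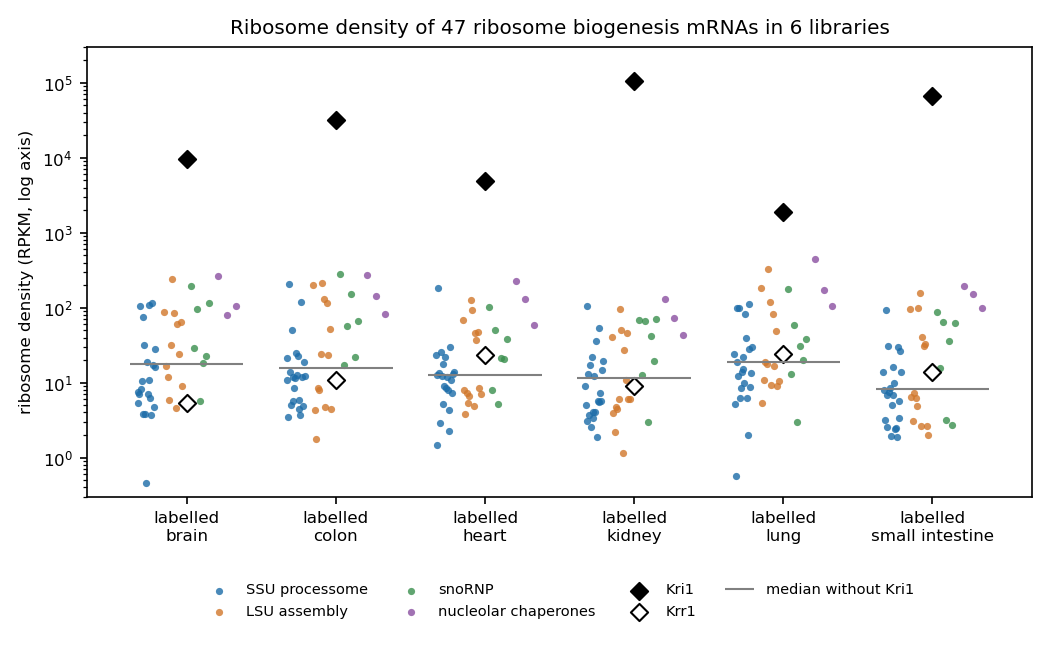
Ribosome density in RPKM (log axis) of the 47 mRNAs in each of the 6 libraries, with 1 point per mRNA, coloured by group, and a grey line at the median of the other 46 members. Kri1 lies between 1893 and 104584 RPKM, above every other member in all 6 libraries, while Krr1 lies between 5.28 and 24.2 RPKM. Values of 0 are not drawn.

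The Kri1 CDS has 2115 nucleotides and lies on the minus strand of chromosome 9 (gene at 21183454 to 21199280, GRCm39). Atg4d, which encodes a protease of autophagy, is annotated on the opposite strand and its exons cover 912 nucleotides of that CDS, or 43.1%. Its own CDS was at 13.0, 3.59, 8.16, 6.40, 0 and 3.77 RPKM. Whether the counting used strand is not given in the sources used here, and reads of overlapping genes cannot be told apart without it. The same limit touches other members with an antisense gene over the CDS, of which Rrs1 (69.4% covered), Tsr1 (38.0%), Imp3 (25.7%), Utp18 (19.6%) and Nop2 (18.5%) had the largest overlaps.

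A property that the choice of members did not use was found in their CDSs. Several nucleolar proteins carry a long run of acidic residues, glutamate and aspartate, and the runs of Utp25, Npm1 and Kri1 are shown because that of Kri1 is made largely of repeated GAG codons, as is that of Utp25. Sequences are from GENCODE release M39 transcripts (GRCm39), written 5′ to 3′ on the coding strand. Capitals mark the run of acidic codons, and the bases around it are lower case.
Utp25: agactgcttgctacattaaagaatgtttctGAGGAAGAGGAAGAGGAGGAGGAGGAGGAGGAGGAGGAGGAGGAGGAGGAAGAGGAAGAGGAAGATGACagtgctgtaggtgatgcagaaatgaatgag
Npm1: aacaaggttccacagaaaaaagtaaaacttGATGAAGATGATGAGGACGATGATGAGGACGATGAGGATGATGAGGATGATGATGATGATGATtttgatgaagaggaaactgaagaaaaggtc
Kri1: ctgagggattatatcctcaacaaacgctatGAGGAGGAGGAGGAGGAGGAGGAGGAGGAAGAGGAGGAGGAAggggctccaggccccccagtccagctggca

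The run is 23 codons long in Utp25 (CDS positions 250 to 318), 21 in Npm1 (475 to 537) and 14 in Kri1 (766 to 807). Runs of at least 10 acidic codons were present in 6 of 47 members (12.8%) and in 1.65% of 18187 other mRNAs. Of those 6 members 5 are described here, including Pes1 and Rrp12 with 11 codons each, so the runs shown are not a ranking by length. An unbroken GAG repeat of at least 24 nucleotides was present in 2 members, Kri1 (27 nucleotides) and Utp25 (36 nucleotides), and in 0.171% of other mRNAs. Utp25, a helicase-like SSU factor, was at 3.67, 3.66, 4.35, 5.55, 2.02 and 1.87 RPKM. The part of the repeat in either level was not tested. The tables hold 1 value per mRNA, so where on the CDS the Kri1 reads lie was not analysed here. Lysine made up a median of 8.94% of codons in members and 5.37% in other mRNAs. The E-box CACGTG, the motif that Myc family proteins are known to bind and which reads the same on both strands, occurred in the promoter window (250 bases before to 50 after the start site, RefSeq, GRCm38.p6) of 9 of the 39 members matched (23.1%) and of 8.88% of 17453 other genes. The 9 were Imp4, Nop2, Pes1, Tsr1, Utp4, Utp18, Utp20, Utp25 and Wdr43, while Kri1 and Krr1 had no E-box there. The other genes were not matched to the members by base composition.

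Apart from Kri1, the members were low to moderate in level and varied less between libraries than most mRNAs. The median RPKM of the other 46 was 17.6, 15.7, 12.8, 11.4, 19.1 and 8.24. Together these 46 took 0.327%, 0.381%, 0.242%, 0.226%, 0.395% and 0.268% of the reads that were not on Kri1. Reads on Kri1 enlarge the total behind RPKM, and without them every other RPKM would be 1.28 times higher in the kidney-labelled library, 1.16 times in the small intestine-labelled library and at most 1.07 times in the rest. The counts, ranges and ratios between libraries below are therefore on log2(RPKM + 1), unless RPKM is named. A highest or lowest library named beside RPKM values is that in RPKM and can differ on the centred scale. For centring, each library was set to the median of the 13521 mRNAs with a mean of at least 1 RPKM. All 47 members passed that filter, 44 had reads in every library, and 41 had at least 10.

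The range over the libraries, highest over lowest, reached 4-fold in 17 of 47 members (36.2%) and in 80.2% of all mRNAs tested. Its median was 3.66-fold over members and 9.47-fold over all mRNAs tested. The share was lower among members in each of the 4 groups, with 10 of 23 SSU factors, 4 of 14 LSU factors, 3 of 7 snoRNP proteins and none of the 3 chaperones. The 17 include Wdr12, Nip7 and Dkc1, which had no reads or were not listed in some libraries. Among mRNAs with at least 10 reads in every library, a filter added after seeing the data, the count was 8 of 41 members beside 60.8% of mRNAs. With a mean of at least 5 RPKM, also tried after seeing the data for this count, it was 10 of 40 beside 75.4%, so the count moved and the distance to the background stayed wide. Besides Kri1, the widest SSU ranges on the centred scale were those of Utp11 (11.3-fold), Utp14a (10.5-fold) and Rrp9 (8.67-fold), and the narrowest of all members was that of Nop14 (1.80-fold).

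**Figure D2:**
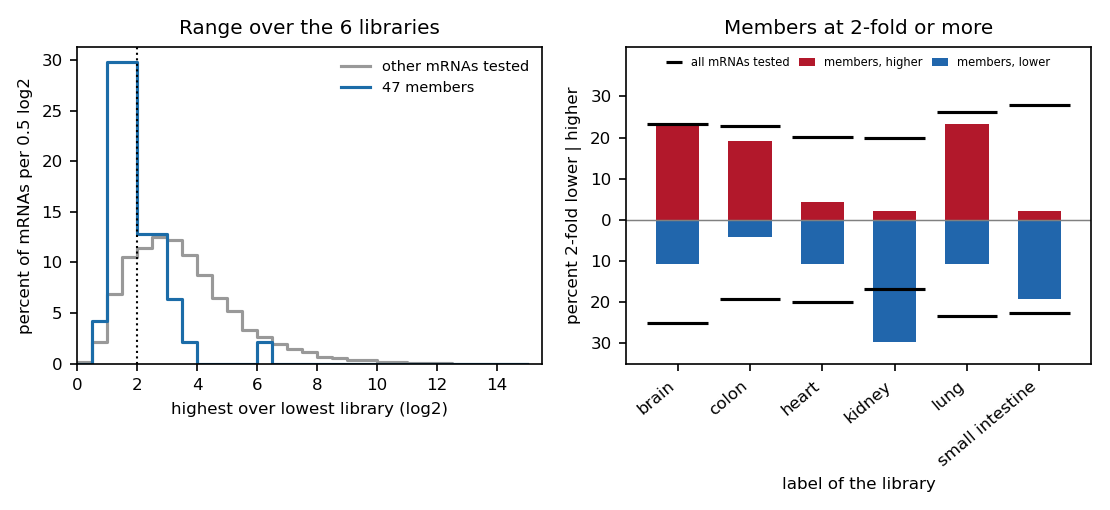
Left, the distribution of the range over the 6 libraries (log2 of highest over lowest, centred log2(RPKM + 1), in steps of 0.5) for the 47 members and the other mRNAs tested, with a dotted line at 4-fold. Right, the percent of the 47 members at least 2-fold higher (up) or lower (down) than the median of the other 5 libraries, with black lines for all mRNAs tested; only the downward bar of the kidney-labelled library reaches well past its line, at 29.8% beside 16.8%.

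Each library was then set against the median of the other 5, and a member was counted as higher or lower at 2-fold or more. In the brain-labelled library 11 of 47 members were higher (23.4% of all mRNAs tested were) and 5 were lower (25.1% of all). In the colon-labelled library 9 were higher (22.9% of all) and 2 lower (19.3%). In the heart-labelled library 2 were higher (20.1%) and 5 lower (20.1%). The share of members was level with that of all mRNAs for the members higher in the brain-labelled library and below it in the other 5 of these 6 counts.

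In the kidney-labelled library 1 member was higher, Kri1 (19.8% of all), and 14 were lower (16.8% of all). In the lung-labelled library 11 were higher (26.2%) and 5 lower (23.5%). In the small intestine-labelled library 1 was higher, again Kri1 (27.8%), and 9 were lower (22.6%). The kidney-labelled library was thus the 1 place where the members' share, 29.8%, clearly exceeded the background. That count did not hold its size: it was 4 beside 13.5% of all mRNAs with the mean of the other 5 libraries as reference, 8 of 40 beside 16.0% with a mean of at least 5 RPKM, 7 without the colon- or the lung-labelled library, and 9 without the brain-labelled library. Among mRNAs with at least 10 reads in every library it was 5 of 41 beside 11.8%, near the background. For the counts that left out a library, the share of all mRNAs is not given. Of the 14 that were lower, 7 were LSU factors: Pes1, Nop2, Nop16, Rrp1, Rrp1b, Rrs1 and Ebna1bp2.

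By group, the median of the kidney-labelled library against the other 5 was 0.819-fold over the SSU factors without Kri1, 0.548-fold over the LSU factors, 0.985-fold over snoRNP proteins and 0.5004-fold over the chaperones. In the small intestine-labelled library the SSU factors had the lowest median, at 0.615-fold, with 17 of 22 below the median of the other libraries. Through the centring, about as many of all mRNAs tested lie above that median as below it in each library. The lung-labelled library had the highest medians for the SSU factors (1.31-fold) and the LSU factors (1.44-fold). For snoRNP proteins the highest median was in the brain-labelled library (1.71-fold), where 6 of 7 were above the median of the other libraries. The groups therefore did not share 1 order of libraries.

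**Figure D3:**
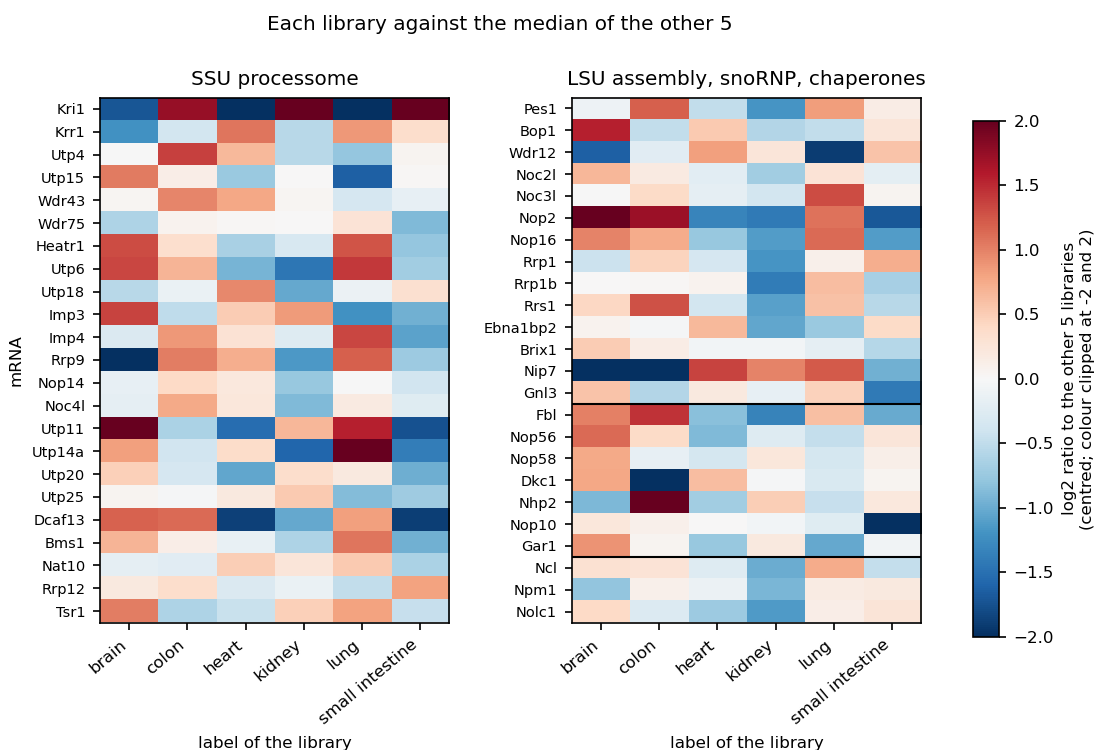
Centred log2 ratio of each library to the median of the other 5 on the log2(RPKM + 1) scale, for the SSU factors (left) and, between black lines, the LSU factors, snoRNP proteins and chaperones (right). Red is higher and blue lower, with colours clipped at 2 in either direction. The kidney-labelled column is below 0 for 32 of the 46 members other than Kri1. Through the centring, about as many of all mRNAs tested lie above 0 as below it.

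Among the SSU factors, UtpA is the complex that binds the precursor first. Its member Wdr43 was at 105, 210, 181, 105, 97.9 and 94.1 RPKM, the highest of the complex in every library. Utp15, a WD40 repeat protein, was at 7.12, 3.50, 1.47, 3.08, 0.572 and 3.14 RPKM, the lowest of the 5 except in the small intestine-labelled library. It rested on only 7 reads in the lung-labelled library (interval 0.230 to 1.18 RPKM). The spread within UtpA, Wdr43 over the lowest member, ran from 14.8-fold in the brain-labelled library to 171-fold in the lung-labelled library.

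The other UtpA members lay between. Utp4, also known as cirhin, was at 7.58, 21.4, 12.5, 4.998, 5.15 and 7.95 RPKM, highest in the colon-labelled library. Wdr75 was at 8.12, 14.0, 13.4, 13.2, 19.1 and 6.88 RPKM, and Heatr1, a very large scaffold protein, was at 10.4, 5.08, 2.87, 3.75, 12.4 and 2.54 RPKM. Heatr1 was 2-fold or more higher in the brain- and lung-labelled libraries. In RPKM, subunits of the same complex therefore peaked in 3 different libraries. The centred ratio of Heatr1 was slightly higher in the brain-labelled (2.48-fold) than in the lung-labelled library (2.40-fold).

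**Figure D4:**
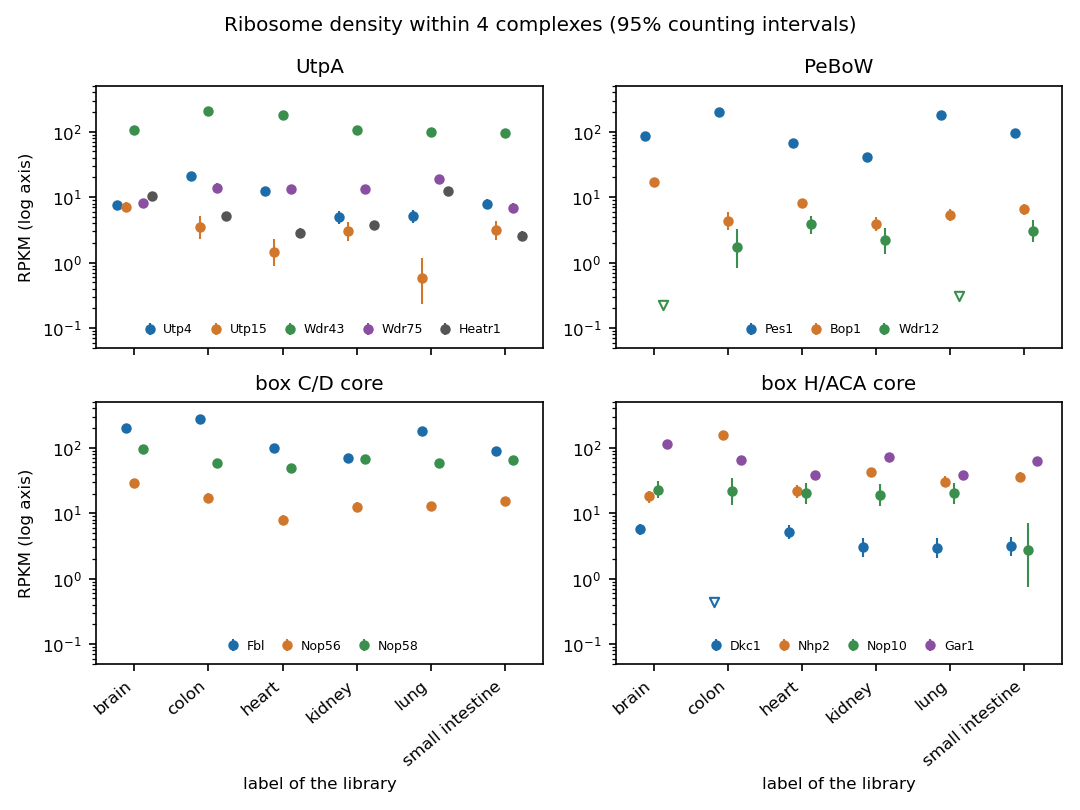
Ribosome density in RPKM (log axis) of the subunits of UtpA, PeBoW and the box C/D and box H/ACA cores in the 6 libraries, with exact 95% Poisson intervals. Open triangles stand at the RPKM of 3 reads where a subunit had none or was not listed. Wdr43, Pes1 and Fbl are the highest of their complex in all 6 libraries.

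Dcaf13, a WD40 protein of the processome that also serves ubiquitin ligases, was at 117, 118, 29.9, 52.8, 111 and 29.6 RPKM. It fell into an upper set of brain-, colon- and lung-labelled libraries and a lower set of heart- and small intestine-labelled ones. Utp11 was at 108, 22.8, 11.8, 35.8, 81.3 and 9.996 RPKM, high in the brain- and lung-labelled libraries. Its lowest value rested on 58 reads. Utp14a, which activates an RNA helicase in yeast, was at 10.7, 5.88, 7.86, 1.89, 39.2 and 2.39 RPKM and was highest in the lung-labelled library, where Kri1 was lowest.

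The remaining SSU factors showed single departures. Rrp9, a protein of the U3 snoRNP, was at 0.462 RPKM in the brain-labelled library from 7 reads (interval 0.186 to 0.952) and between 3.42 and 15.3 RPKM elsewhere. Utp6 of the UtpB complex was 2-fold or more higher in the brain- and lung-labelled libraries and lower in the kidney-labelled library, with values from 17.3 to 98.1 RPKM. Imp3 and Imp4, which work in the same complex with Mpp10, differed in their highest library: Imp3 was highest in the brain-labelled library (31.3 RPKM) and Imp4 in the lung-labelled library (14.1 RPKM). Nop14 stayed between 12.1 and 25.0 RPKM and Rrp12, an export factor, between 13.1 and 26.1 RPKM. Bms1, a GTPase, ran from 5.64 to 27.9 RPKM, and the acetyltransferase Nat10 from 3.36 to 8.84 RPKM.

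Among the LSU factors, Nop16 had the highest mean density, at 244, 214, 126, 96.2, 326 and 98.0 RPKM. Rrp1 was at 85.7, 130, 93.9, 50.9, 119 and 157 RPKM, and unlike Nop16 it was highest in the small intestine-labelled library. The PeBoW complex, which processes the precursor of the large subunit RNAs, was uneven. Pes1 was at 86.4, 201, 68.2, 41.0, 183 and 96.2 RPKM, the highest of the complex in every library. Bop1 was at 16.9, 4.35, 8.07, 3.90, 5.30 and 6.49 RPKM, highest in the brain-labelled library, where Pes1 was not.

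Wdr12, the other PeBoW subunit, was at 0, 1.75, 3.85, 2.18, 0 and 3.09 RPKM. It was not listed in the brain-labelled library and was taken as 0 there, while in the lung-labelled library it was listed at 0. In those libraries 3 reads would have given 0.222 and 0.306 RPKM. Nip7, also placed among the LSU factors, was at 0, 0, 8.37, 6.10, 9.10 and 2.66 RPKM. Nip7 too was not listed in the brain-labelled library, and it was listed at 0 in the colon-labelled library. For Nip7, 3 reads would have given 0.522 RPKM in the brain-labelled library and 1.23 RPKM in the colon-labelled library. Of 74 ribosomal protein mRNAs, 4 also had no reads or were not listed in the brain-labelled library, 4 in the colon-labelled and 5 in the lung-labelled library. Of the 18437 mRNAs listed in any library, 11520, 12325 and 11594 had reads in the brain-, colon- and lung-labelled libraries. The reason for these absences was not tested. Nop2, an rRNA methyltransferase linked to proliferation, was at 31.8, 24.1, 6.62, 5.98, 18.0 and 4.89 RPKM. Its range was 6.34-fold on the centred scale and 6.51-fold in RPKM, where that of Rrp1b was wider (7.95-fold). Brix1 varied least of the LSU factors in RPKM, between 32.4 and 64.7.

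Among the snoRNP proteins, the box C/D core keeps its order. Fibrillarin (Fbl), the methyltransferase, was at 198, 279, 101, 68.8, 180 and 88.8 RPKM and was highest of the core in every library. Nop58 was at 96.8, 57.7, 49.9, 67.4, 58.9 and 64.2 RPKM. Nop56, its paralogue, was at 28.6, 17.4, 7.94, 12.6, 12.9 and 15.6 RPKM and lowest of the core in every library. Fbl and Nop58 were nearly level in the kidney-labelled library.

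The box H/ACA core had no such order. Gar1 was at 115, 66.0, 38.4, 71.2, 37.9 and 63.0 RPKM and was the highest subunit in 5 libraries. Nhp2 was at 18.0, 154, 21.6, 42.2, 30.4 and 35.6 RPKM and exceeded Gar1 in the colon-labelled library. Its value there stood on 319 reads (interval 138 to 172 RPKM), above the interval of every other library.

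Dyskerin (Dkc1), the pseudouridine synthase, was at 5.67, 0, 5.20, 3.02, 2.97 and 3.17 RPKM. It was not listed in the colon-labelled library and was taken as 0 there, where 3 reads would have given 0.436 RPKM. Nop10, the smallest subunit, was at 23.0, 22.0, 20.4, 19.2, 20.2 and 2.73 RPKM. It was nearly level in 5 libraries and low in the small intestine-labelled library, where it had 4 reads (interval 0.743 to 6.98 RPKM).

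With Kri1 left aside, the nucleolar chaperones had the highest median RPKM of the groups in every library. Nucleolin (Ncl), which binds rRNA and chromatin, was at 269, 274, 225, 131, 444 and 193 RPKM. Nucleophosmin (Npm1) was at 79.3, 143, 132, 73.8, 175 and 152 RPKM. Nolc1, which carries snoRNPs to the nucleolus, was at 105, 81.9, 59.1, 43.1, 106 and 98.1 RPKM. In RPKM all 3 were lowest in the kidney-labelled library and highest in the lung-labelled library, although Nolc1 was as high in the brain-labelled library within counting error. The interval of Npm1 in the kidney-labelled library (67.4 to 80.6 RPKM) overlapped that in the brain-labelled library (73.7 to 85.3 RPKM). On the centred scale only Ncl was highest in the lung-labelled library. By that scale Npm1 was highest in the small intestine-labelled library (1.15-fold beside 1.13-fold in the lung-labelled) and Nolc1 in the brain-labelled library (1.32-fold). Nolc1 was the only one to pass 2-fold, in the kidney-labelled library.

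Likeness to Kri1 was measured by Pearson's r of log2(RPKM) over the 6 libraries, as a description with no test. The points share the libraries and their totals, of which Kri1 itself was up to 22.1%, so reads on Kri1 lowered the RPKM of the others by up to 1.28-fold. Of 40 members with at least 10 reads in every library, 8 had r above 0, and the median was -0.44 beside -0.23 over the 6714 mRNAs compared. The highest member was Rrp12 (0.60) and the lowest Utp14a (-0.95). Krr1 was at -0.49. The mRNAs most like Kri1 were no members: Rffl (0.98), Hddc2 (0.96), Ermp1 (0.96), Ddr1 (0.95) and Kat7 (0.94). Their densities were all far lower, with a highest value of 89.6 RPKM for Ermp1.

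Other genes of the pathway, in lists chosen by function, are given for comparison by the same rule. The shares of all mRNAs tested were 19.8% higher and 16.8% lower in the kidney-labelled library, 26.2% and 23.5% in the lung-labelled, 20.1% and 20.1% in the heart-labelled and 27.8% and 22.6% in the small intestine-labelled library. Of 30 further SSU factors, 10 were higher and 2 lower in the lung-labelled library, and 1 was higher and 9 lower in the kidney-labelled library. Of 35 further LSU factors tested, none was higher and 10 were lower in the kidney-labelled library, with a median of 0.717-fold, and 6 were higher and 4 lower in the lung-labelled library. Of 14 RNA polymerase I subunits and factors, which transcribe the precursor, 1 was higher and 2 lower in the kidney-labelled library. Of 8 snoRNP assembly factors tested, none was higher and 1 was lower there. Among 73 ribosomal protein mRNAs tested, 16 were higher and 2 lower in the heart-labelled library, 7 higher and 1 lower in the kidney-labelled library, and 2 higher and 24 lower in the small intestine-labelled library.

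The widest ranges in those lists belonged to Utp23 (0 to 51.6 RPKM) among SSU factors, Rsl24d1 (0 to 25.1 RPKM) among LSU factors, Taf1a (0 to 19.9 RPKM) among polymerase I factors and Znhit3 (0 to 28.9 RPKM) among snoRNP assembly factors. Myc was at 16.4, 4.89, 0.449, 3.78, 10.5 and 1.54 RPKM, and its partner Max at 136, 41.6, 22.1, 57.1, 208 and 19.6 RPKM. Myc and Max were highest in the brain- and lung-labelled libraries. Mycl, of the same family and with a wider range than Max (9.59-fold beside 8.97-fold), was at 8.09, 0, 0.221, 4.54, 4.45 and 5.45 RPKM. It was highest in the brain-labelled library and next in the small intestine-labelled one. The brain- and lung-labelled libraries also had the highest median RPKM of the members, and a link to Myc was not tested. The proliferation list did not follow the same order, since 12 of its 16 mRNAs were higher in the brain-labelled library (23.4% of all mRNAs tested) and 9 in the kidney-labelled library, where the members were mostly low. The part of dividing cells in the members' levels was not tested.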

How the data were processed

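Ribo-seq RPKM values, 1 per protein-coding mRNA and library, were deposited by the authors in 6 tables. The submitters' processing notes name cutadapt, STAR and GRCm39. The Methods, written for the macrophage libraries and taken to hold here, state that reads were dropped if under 15 nt, mapped to several places or carrying over 2 mismatches, and that reads were counted on the longest CDS of each gene (Ensembl release 107). Versions and the strand setting are not given in the sources used here. An mRNA not listed in a table was taken as 0.

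RPKM times CDS length was a whole multiple of 1 read (tolerance 0.001) for 100% of values, which gave the reads. No count test was run, with 1 library per tissue. Log2 ratios used a pseudocount of 1 RPKM, which understates the changes of low mRNAs. Of 18437 mRNAs, 18424 were named through GENCODE release M39. Members and lists were chosen with earlier results of these data known. Values in all libraries are given for Kri1, Krr1 and the UtpA, PeBoW, box C/D and box H/ACA complexes. They are also given for the 3 members with the highest mean and the 2 with the widest range in each group. Myc, Mycl and Max are given in all libraries. From the further SSU, LSU, polymerase I and snoRNP assembly lists, the mRNA with the widest range is given by its lowest and highest value. For the 5 mRNAs most like Kri1, r and the highest density among them are given. Utp14a, Utp25, Nop2 and a few others were added after their values were seen. The sequence of 1 further acidic run is not reported here. Scripts were tested on simulated data. Values were computed with pandas 2.3.3, scipy 1.17.1 and numpy 2.4.6 and drawn with matplotlib 3.10.9 (Python 3.11.15). Alternatives were another pseudocount, filter, reference or centring and leaving out each library.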

Additional observations from a re-analysis of the deposited data

How the results depend on the processing

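With 1 library per tissue, all counts describe these libraries, and 99 of 147 alternative values were taken as unchanged. For a count this meant within 1.5 times of the value reported. For a Kri1 ratio or a median RPKM it meant a move of less than its interval, which is not given here. Percentages in brackets below are the shares of all mRNAs called in the same way. With the mean of the other 5 libraries as reference, 6 of 47 members were higher (22.5%) and 3 lower (17.3%) in the heart-labelled library. In the kidney-labelled library 2 were higher (20.1%) and 4 lower (13.5%), and in the small intestine-labelled library 2 were higher (27.7%). With a pseudocount of 0.1 RPKM, 4 were higher in the heart-labelled (26.3%) and 2 in the kidney-labelled library (24.8%). Without centring, 3 were lower in the lung-labelled library (19.8%). With a mean of at least 5 RPKM, which left 40 members, 3 were lower in the brain-labelled (24.4%) and 0 in the colon-labelled library (20.6%). In the kidney-labelled library 8 were lower (16.0%), and in the lung-labelled library 7 were higher (23.6%) and 3 lower (24.2%). Of the 40, 10 had a range of 4-fold (75.4%). All alternatives for the range were added after seeing the data. With at least 10 reads in every library, chosen after seeing the data, 41 members were left. In the brain-labelled library 7 were higher (17.7%) and 3 lower (18.5%), and in the colon-labelled library 0 were lower (16.3%). In the kidney-labelled library 2 were higher (15.6%) and 5 lower (11.8%), and in the lung-labelled library 5 were higher (18.2%). In the small intestine-labelled library 3 were higher (20.5%) and 5 lower (21.1%). Of the 41, 8 had a range of 4-fold (60.8%). Leaving out 1 library at a time gave 0 to 4 higher and 3 to 7 lower in the heart-labelled, 1 to 4 higher and 7 to 11 lower in the kidney-labelled and 1 to 2 higher in the small intestine-labelled library. Shares of all mRNAs are not given for these counts, so they cannot be weighed against a background. Kri1 over the SSU members alone was 1026, 2674, 16100 and 129 in the brain-, colon-, kidney- and lung-labelled libraries. Over the geometric mean of the other members it was 457, 1520, 275, 77.7 and 4572 in the brain-, colon-, heart-, lung- and small intestine-labelled libraries. The median RPKM of the 47 members in the kidney-labelled library was 15.6 with Kri1 left out of the total and 12.1 with it. For all of these, the cause was not tested. Few reads limit Utp15, Rrp9, Nop10, Wdr12, Nip7 and Dkc1 most. No paired analysis was possible because each tissue had 1 library.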
